A study of Mus musculus with 2 samples.

Results

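The genes described here encode the trains, adaptors and motors of intraflagellar transport, together with the BBSome and its helpers. They were taken as a list of 39 mouse gene symbols and matched to the gene entries of the deposited tables through GENCODE names, with no level or ratio as a criterion. All 39 were found, among 43346 genes in each table, and they lie on 16 chromosomes. The RNA came from the testis of 1 adult male mouse of strain C57BL/6J aged 10 weeks. Polyadenylated RNA of that testis was sequenced in 2 technical libraries, called replicate 1 and replicate 2 here, the latter made in 2015. No treatment, genotype or control group enters the series, so the only contrast the data allow is one library against the other.

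Intraflagellar transport moves protein cargo along the microtubules of cilia and flagella. The IFT-B complex rides outward with the kinesin-2 motor, and the IFT-A complex together with the dynein-2 motor serves the return from the tip. The BBSome is a coat-like adaptor that links membrane proteins to these trains. In the testis, spermatids use this machinery while they build the sperm tail, and mutations in many of the genes leave sperm without a working flagellum.

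The 2 libraries held 31995377 and 20675551 expected counts, the authors' estimates of the reads from each gene. The 39 members took 158837 of these counts (0.496%) in replicate 1 and 89923 (0.435%) in replicate 2. Levels between genes are compared in TPM (a scale per transcript length with the same total in each library). Detection meant at least 1 TPM in each library. Markers of germ cells were all detected, 6 of 6, with a summed level of 8757 TPM in replicate 1 and 24782 TPM in replicate 2. The Sertoli cell and Leydig cell markers were detected too, 5 of 5 each, with summed levels of 121 and 306 TPM for the first list and 409 and 1980 TPM for the second. In replicate 2 a single gene gave most of each of these sums, Amhr2 (2.40 and 172 TPM) and Insl3 (83.2 and 1630 TPM). By the scaled counts used below, 3 of 6 germ cell, 3 of 5 Sertoli cell and 1 of 5 Leydig cell markers were higher in replicate 2. Of 5 epididymal epithelium markers 1 was detected (Rnase10, 6.23 and 4.66 TPM), and Lcn5 and Lcn8 had 0 counts in both libraries, where 0 allows up to 3 counts of counting error. Of 5 genes listed as markers of multiciliated cells, 4 were found and 2 detected. These were Deup1 at 330 and 217 TPM and the beta tubulin gene Tubb3 at 2.03 and 34.6 TPM. Whether either is specific to multiciliated cells was not tested. Ccno, a cyclin of multiciliated cells, had 0.76 and 3.06 TPM, and Mcidas, their master regulator, had 4 counts in replicate 1 and 0 in replicate 2. How far cells other than germ cells contributed to the levels below was not tested. In this bulk tissue, fewer cells of a type and less RNA per cell cannot be told apart.

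The promoters of 3 members are shown first, because they hold the full palindromic X-box, the motif bound by the RFX factors that switch on ciliary genes. The search used its 14 letters, the arms GTTNCC and GGNAAC with NN between them and N for any base, on both strands of RefSeq windows of 300 bases around the gene start on GRCm38.p6. The X-box stands in capitals in each sequence, which is written 5′ to 3′ on the strand of the gene.
Ttc30a2: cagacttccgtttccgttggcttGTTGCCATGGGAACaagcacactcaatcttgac
Bbs7: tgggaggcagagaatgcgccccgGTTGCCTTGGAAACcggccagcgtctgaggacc
Ttc26: ccggcggcGTTGCCGTGGAAACggagctcg
The Ttc30a2 stretch is chr2:75978171-75978226 on the minus strand, and its motif ends 11 bases before the RefSeq start. The Bbs7 stretch is chr3:36613478-36613533 on the minus strand, with the motif ending 108 bases before the start. The Ttc26 stretch is chr6:38381483-38381512 on the plus strand, where the motif ends 20 bases before the start and the stretch overlaps an exon of the GENCODE M21 annotation.

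A promoter window was listed for 34 of the 39 members, and 3 of those 34 (8.82%) held the full motif, against 143 of 27025 genes (0.529%). The 6-base arm GTTGCC, searched on both strands, is part of all 3 of these matches. It stood in the windows of 13 of the 34 members (38.2%) and of 3821 of 27025 genes (14.1%). The 13 came from IFT-A (Ift140, Wdr35), IFT-B (Ift27, Ift57, Ift88, Ift172, Traf3ip1, Ttc26, Ttc30a2), the BBSome (Bbs1, Bbs5, Bbs7) and dynein-2 (Dync2h1). A match describes the letters of these windows and shows no binding.

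All 39 members were detected. Their median level was 53.97 TPM in replicate 1 and 53.96 TPM in replicate 2, at the 87.6th and 84.6th percentile of 21474 protein-coding genes. Among the 11725 protein-coding genes detected, the medians were 13.8 and 20.8 TPM. Each of the 39 lay above the median of all protein-coding genes in both libraries, 34 had 10 TPM or more in both, and 5 had 100 TPM or more in both. Those 5 were Ift74, Ift81, Ift140, Ttc30a2 and Kifap3. Ift81 had 105 TPM in replicate 2, and 92.2 TPM there without transcripts shorter than 350 bases, where the labelled size range began. The number of counts behind a member ran from 61 (Ift27 in replicate 1) to 21087 (Ift74 in replicate 1).

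**Figure D1:**
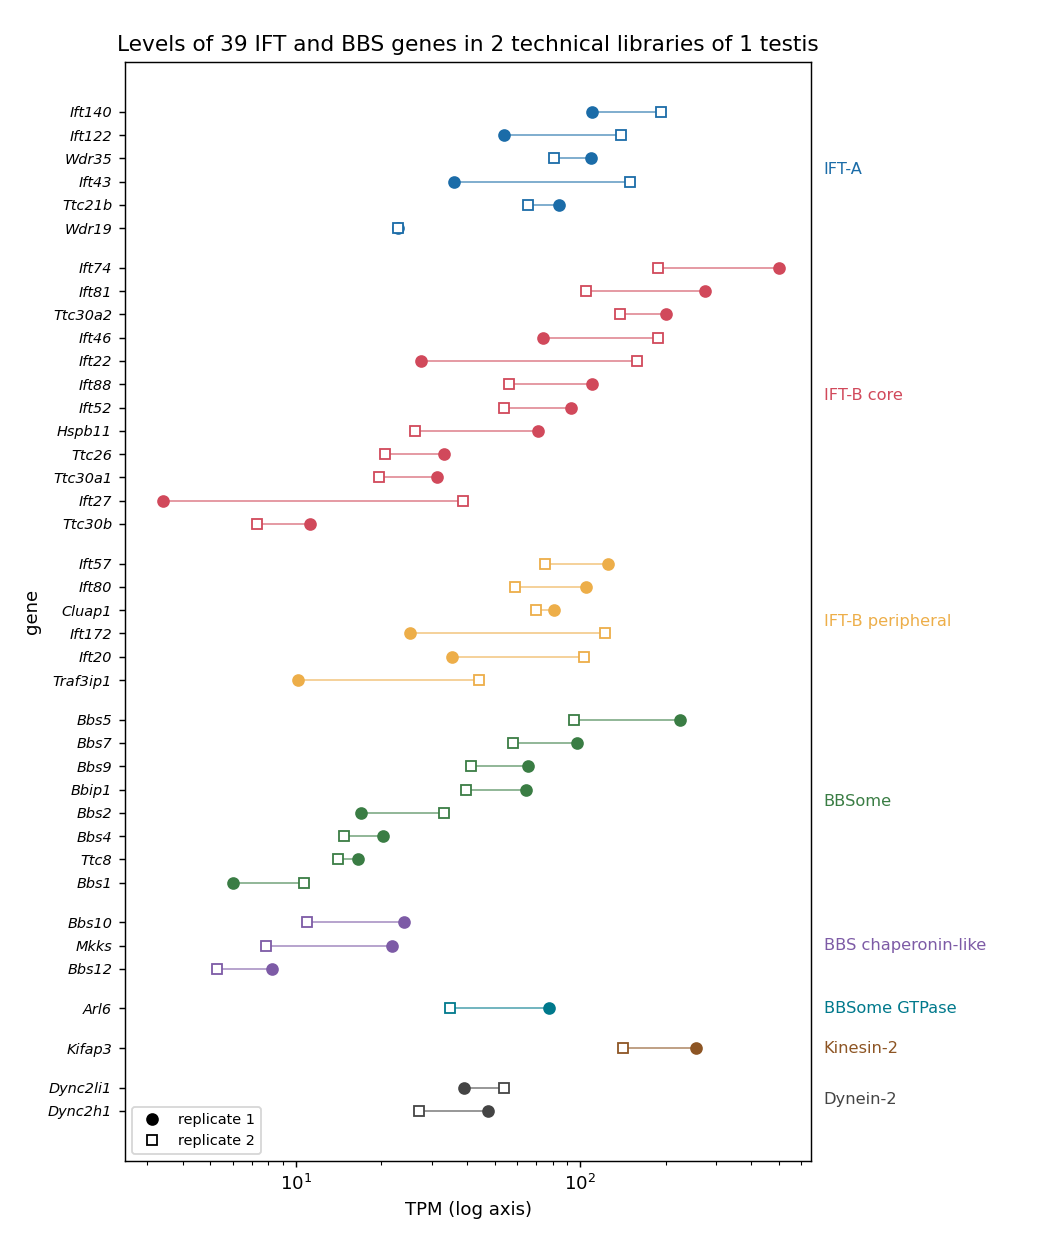
TPM of each of the 39 genes in replicate 1 and replicate 2 on a log axis, grouped by complex. Every gene lies at or above 1 TPM in both libraries, and the points of one gene lie far apart for some IFT genes, such as Ift27 at 3.41 and 38.6 TPM.

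The order of the members was shared in part. Of 741 pairs of members, 557 (75.2%) stood in the same order by TPM in both libraries, and 5 genes were among the 10 highest in both. Across the 39 genes Spearman's rho between the libraries was 0.666 for TPM and 0.776 for counts, and across detected protein-coding genes it was 0.737 for TPM. These values describe genes that share libraries and depth.

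The IFT-A complex, which carries retrograde trains and brings membrane proteins into cilia, had a median of 69.2 TPM in replicate 1 and 110 TPM in replicate 2 over its 6 genes. Median counts were 3998 and 4166. Ift140 (chr17:25016085-25099495), a core subunit, was highest by mean, at 109.7 and 191.9 TPM. Ift122, another core subunit, had 54.0 and 138.9 TPM. Wdr35 (IFT121) had 109.5 and 80.9 TPM, and Ttc21b (IFT139), a peripheral subunit, had 84.5 and 65.4 TPM. Ift43, also peripheral, had 35.9 and 149.6 TPM, from 458 and 1221 counts. Wdr19 (IFT144) was the lowest of the complex and the closest between libraries, at 22.8 and 22.9 TPM. Replicate 2 was thus the higher for Ift43, Ift122 and Ift140, and replicate 1 for Wdr35 and Ttc21b.

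The IFT-B core, which includes the tubulin-binding pair Ift74 and Ift81, had a median of 72.5 and 55.2 TPM over 12 genes. Median counts were 2399.6 and 1434.5. Ift74 (chr4:94614491-94693229) was the highest of all 39 genes in replicate 1, at 500.05 TPM from 21087 counts, and had 187 TPM from 4639 counts in replicate 2. Its partner Ift81 had 275 and 105 TPM and stayed below Ift74 in both libraries. Ift88, whose loss in mice shortens cilia, had 110 and 56.4 TPM, and Ift52, which holds core subunits together, had 92.5 and 54.0 TPM. Ift46 had 74.0 and 187.5 TPM. Ttc26 (IFT56) had 33.3 and 20.5 TPM. The small GTPase Ift22 had 27.5 and 158.6 TPM, from 431 and 1589 counts.

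Ift27 and Hspb11 (IFT25) encode a small GTPase and its partner, a heterodimer needed for BBSome export from cilia. Ift27 (chr15:78159463-78174107) had 3.41 TPM in replicate 1, the lowest of all 39 genes there, and 38.6 TPM in replicate 2, from 61 and 440 counts. Hspb11 had 71.0 and 26.3 TPM, from 651 and 155 counts. The partners therefore stood in opposite order in the libraries, with Hspb11 above Ift27 in replicate 1 and below it in replicate 2.

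IFT70, another core subunit, is encoded in the mouse by 3 single-exon genes on the minus strand of chromosome 2. Ttc30a2 (chr2:75975740-75978170) had 199.8 and 137.8 TPM. Ttc30a1 (chr2:75978247-75981967), which lies 76 bases from it, had 31.4 and 19.7 TPM. Ttc30b (chr2:75935849-75938585) had 11.2 and 7.28 TPM. The order was the same in both libraries, with Ttc30a2 highest and Ttc30b lowest.

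Their coding sequences are each 1992 bases long in GENCODE M21, and reads of one can match another, so the stretch of 90 bases with the most differences is shown. It covers coding bases 547 to 636 (GRCm38), and capitals mark the 23 positions at which the 3 genes are not all alike. It sets Ttc30a2 apart, at 23 positions from Ttc30a1 and 22 from Ttc30b, whereas Ttc30a1 and Ttc30b differ there at 1 position.
Ttc30a1: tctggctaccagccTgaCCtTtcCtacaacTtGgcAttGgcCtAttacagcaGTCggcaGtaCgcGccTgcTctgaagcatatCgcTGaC
Ttc30a2: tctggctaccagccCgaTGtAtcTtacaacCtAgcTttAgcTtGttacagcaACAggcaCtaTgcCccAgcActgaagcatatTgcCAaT
Ttc30b: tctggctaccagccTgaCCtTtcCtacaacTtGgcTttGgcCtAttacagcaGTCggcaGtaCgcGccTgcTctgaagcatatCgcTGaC
Over the whole coding sequence 149 positions differ. Identity was 95.1% between Ttc30a1 and Ttc30a2, with 97 mismatches and a longest identical run of 460 bases. It was 94.9% between Ttc30a1 and Ttc30b, with a longest run of 212 bases, and 94.9% between Ttc30a2 and Ttc30b, with a longest run of 226 bases. The authors' posterior SD, which covers how reads that match several genes were shared out, was 21.7 of 9725 counts for Ttc30a2 in replicate 1 and 12.7 of 4250 in replicate 2. It was 21.3 of 2409 and 12.1 of 954 counts for Ttc30a1, and 3.86 of 618 and 4.25 of 255 counts for Ttc30b. The gaps between the 3 genes were far larger than these SDs in both libraries. Because the copies are near-identical, their separate levels remain estimates of the authors' read assignment. For 34 of the 39 members the posterior SD was 0 in both libraries, and the other genes above 0 were Cluap1 and Wdr35.

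The peripheral IFT-B genes, whose products bind the kinesin motor and tubulin, had a median of 58.2 and 72.7 TPM over 6 genes. Median counts were 2519 and 1477. Ift57 was highest by mean, at 125.4 and 75.3 TPM, followed by Ift80 at 104.9 and 58.8 TPM. Cluap1 (IFT38) had 80.8 and 70.1 TPM. Ift172, a large subunit that acts in turnaround at the tip, had 25.3 and 122.2 TPM from 2862 and 8749 counts. Ift20, which also works at the Golgi, had 35.5 and 103 TPM from 466 and 874 counts. Traf3ip1 (IFT54) was lowest, at 10.2 and 43.99 TPM. Ift57, Ift80 and Cluap1 were higher in replicate 1 and Ift172, Ift20 and Traf3ip1 in replicate 2.

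The 8 BBSome genes had medians of 42.3 and 36.5 TPM and of 1336 and 1005.5 counts. In both libraries both BBSome medians stood below those of IFT-A and of either IFT-B list. Bbs5, a lipid-binding subunit, was highest in both libraries, at 224 and 95.1 TPM from 5742 and 1507 counts. Bbs7 followed at 97.6 and 58.2 TPM. Bbs9, a scaffold subunit, had 65.3 and 41.3 TPM, and the small subunit Bbip1 had 64.4 and 39.7 TPM. Bbs4 had 20.2 and 14.8 TPM, Ttc8 (BBS8) 16.6 and 14.0 TPM, and Bbs2 16.95 and 33.25 TPM. Bbs1, which binds Arl6, was lowest in both libraries, at 6.01 and 10.7 TPM from 703 and 789 counts. BBSome subunits form one particle, yet their transcript levels spread from 6.01 to 224 TPM in replicate 1 and from 10.7 to 95.1 TPM in replicate 2.

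The chaperonin-like proteins Mkks, Bbs10 and Bbs12 help assemble the BBSome. Their transcripts were the lowest of the lists, with medians of 21.8 and 7.84 TPM. Bbs10 had 23.9 and 10.9 TPM, Mkks 21.8 and 7.84 TPM and Bbs12 8.25 and 5.28 TPM. Bbs12 was the lowest of the 39 genes in replicate 2. All 3 were lower in replicate 2, with 1333, 488 and 402 counts in replicate 1 and 384, 186 and 163 in replicate 2. Arl6, the small GTPase that brings the BBSome to membranes, had 77.7 and 34.8 TPM.

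Of the motors, Kifap3 (chr1:163779583-163917109), the accessory subunit of kinesin-2, had 255 and 142 TPM from 20786 and 7314 counts. The dynein-2 pair had medians of 43.2 and 40.5 TPM. Dync2h1 (chr9:6928503-7184446), the motor's heavy chain, had 47.4 and 27.1 TPM. Dync2li1, its light intermediate chain, had 38.9 and 53.9 TPM, so the 2 subunits changed order between the libraries. Dync2h1 shows how length separates the 2 scales. The gene, whose main transcript has 13972 bases, drew 13849 and 4861 counts, which ranked 3 and 5 among the 39 genes, while its TPM ranked 21 and 28. Dync2li1, with a transcript of 1324 bases, drew 960 and 845 counts. Dynein-2 thus led the other multi-gene lists by median count in replicate 1, with 7404.5, but not by TPM.

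The libraries were then compared gene by gene with an exact two-sided binomial test on rounded expected counts, scaled by TMM, with Benjamini-Hochberg adjustment over 18589 genes. Calls required a ratio of at least 2 besides an adjusted p below 0.05. The test compares the reads of 2 libraries of 1 animal and says nothing about other animals. Of the 39 members 21 (53.8%) were called, where 55.8% of all genes tested were called. The members' share thus lay near the background at this scaling. Of the 21, 8 were higher in replicate 2 (20.5% of members against 32.3% of all genes) and 13 in replicate 1 (33.3% against 23.5%). The split depends on scaling. With plain library totals, which moved the median log2 ratio of all genes to 0.29 from 0.01 with TMM, 33.3% of the members were called against 51.6% of all genes. Of these members, 9 were higher in replicate 2 (23.1% of members against 36.2% of all genes) and 4 in replicate 1 (10.3% against 15.4%).

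The 8 genes higher in replicate 2 were all IFT genes. Ift27 had the largest ratio, 9.13-fold (log2 ratio 3.19), then Ift22 with 4.69-fold and Ift172 with 3.89-fold. Traf3ip1 was 3.44-fold, Ift43 3.39-fold, Ift122 3.12-fold, Ift140 2.84-fold and Ift20 2.39-fold higher. They comprised 3 of 6 IFT-A genes, 2 of 12 IFT-B core genes and 3 of 6 peripheral IFT-B genes. None of the 15 other members, of the BBSome, its helpers and the motors, was called in that direction, against 32.3% of all genes tested. After the correction for GC content given below, the members called in that direction were Ift20 and a BBSome gene, Bbs9. Whether the share called differed between the complexes was not tested.

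The 13 genes higher in replicate 1 (33.3% of members, against 23.5% of all genes) came from every list but IFT-A. In the IFT-B core, Ift74 was 3.57-fold, Hspb11 3.29-fold, Ift81 2.42-fold and Ift88 2.35-fold higher. Of the peripheral IFT-B genes, Ift80 was 2.23-fold higher. Of the BBSome, Bbs5 was 2.99-fold, Bbs7 2.14-fold and Bbip1 2.01-fold higher. Bbs10 was 2.72-fold and Mkks 2.06-fold higher among the chaperonin-like genes, Arl6 was 2.36-fold, Dync2h1 2.24-fold and Kifap3 2.23-fold higher. Bbip1, with a log2 ratio of -1.01, just passed the limit, and Ttc26, at 33.3 and 20.5 TPM, fell just short of it. The remaining genes were not called. Among them, the Ttc30 genes had log2 ratios between -0.99 and -0.84, Bbs12 had -0.95 and Ift46 had 0.91.

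**Figure D2:**
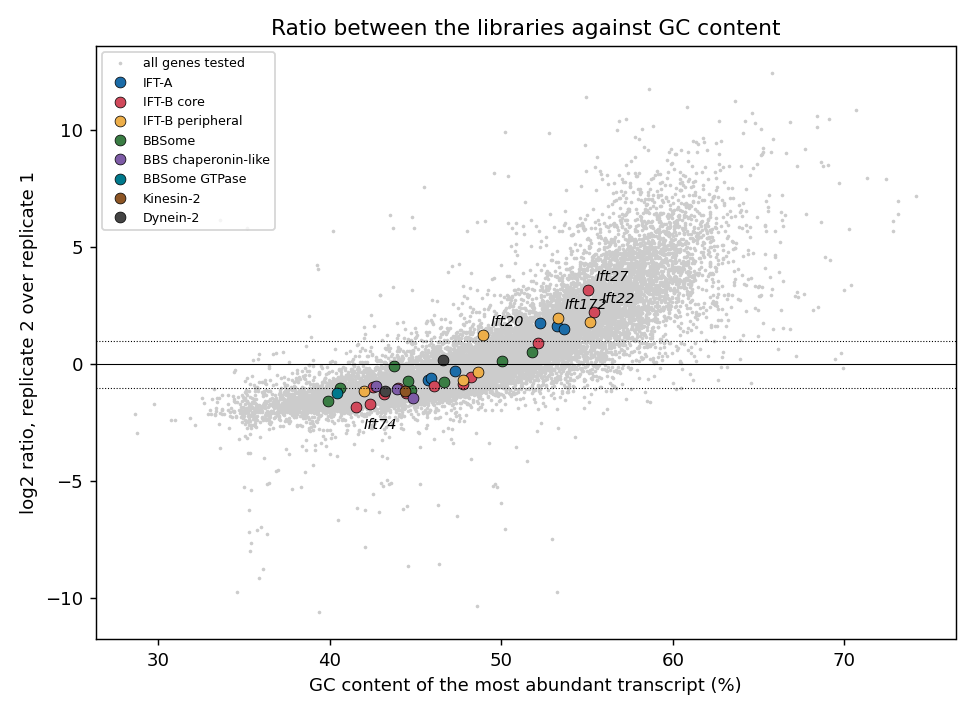
Log2 ratio of replicate 2 over replicate 1 against the GC content of the most abundant transcript, with all genes tested in grey and the 39 members coloured by complex. Dotted lines mark a ratio of 2 in each direction, and members of high GC such as Ift27 and Ift22 lie above the upper line while most members under 45% GC, such as Ift74, lie near or below the lower one.

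GC content moved with these ratios. Of the 10 members whose most abundant transcript had a GC content of 50% or more, 7 were called higher in replicate 2 and 0 in replicate 1. Of the 18 members under 45%, 13 were called higher in replicate 1 and 0 in replicate 2. Of the 11 between, 1 was called, Ift20. Over all genes tested, of any GC content, 32.3% were called higher in replicate 2 and 23.5% in replicate 1. The shares of all genes called within these GC classes were not taken, so the counts are no trait of the members. Spearman's rho between log2 ratio and GC content was 0.883 across the 39 members and 0.885 across 18404 tested genes with a GC value. With transcript length rho was -0.084 across the members. These are descriptions across genes of the same 2 libraries. Among the called genes, Ift22 (55.4% GC), Traf3ip1 (55.2%) and Ift27 (55.1%) were higher in replicate 2, and Bbs5 (39.9%), Arl6 (40.4%) and Ift74 (41.6%) in replicate 1.

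The ratios were therefore also taken relative to the median of genes of like GC content, in 100 bins. Of the 39 members 2 (5.13%) were then called, both higher in replicate 2, where 19.8% of 18404 genes were called (11.0% higher in replicate 2 and 8.87% higher in replicate 1). The median size of the log2 ratio among the members went from 1.04 to 0.21, and among all genes tested from 1.15 to 0.44. Ift20 was called in the same direction as before, with a corrected log2 ratio of 1.36 against 1.26 uncorrected. The GC value for Ift20 came from the 582-base Ift20-202, with 39.1% and 39.5% of its counts. Ift20-203, of 1141 bases, had 54.0% and 52.9% of them. Bbs9, not called before with a log2 ratio of -0.08, was called higher in replicate 2 with 1.01. The GC value for Bbs9 came from a transcript of 638 bases listed at 0% in replicate 2. Ift43 had 0.95 and Ift27 0.92 after correction, so neither passed the limit of 2. Ift74 had -0.47, Hspb11 -0.46, Ift22 0.07 and Ift140 0.04. The direction turned for 13 of the 39 genes, 4 of them called before, Ift80 (0.15), Bbip1 (0.44), Arl6 (0.21) and Traf3ip1 (-0.30).

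**Figure D3:**
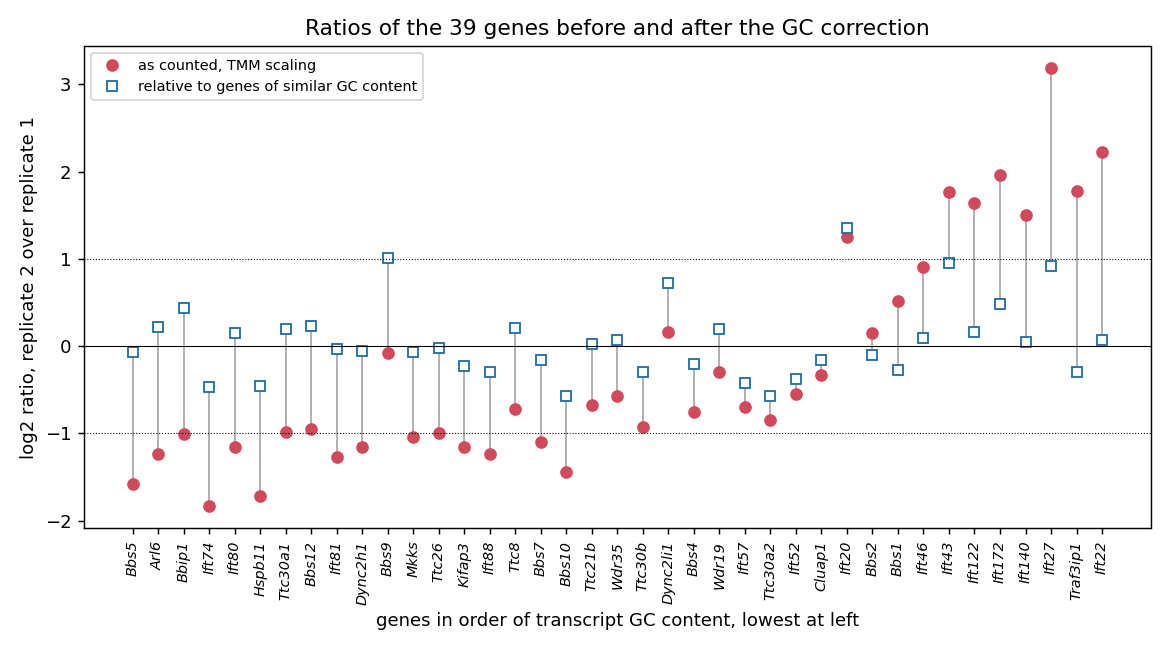
Log2 ratio of replicate 2 over replicate 1 for each of the 39 genes before and after the correction for GC content. Most corrected values lie near 0, and Ift20 (1.36) and Bbs9 (1.01) alone lie beyond a ratio of 2.

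The transcript files added a second difference between the libraries. In the annotation used, 13 members had 1 transcript and 26 had more, and for 21 of the 26 the most abundant transcript by TPM was the same in both libraries. Some members rested almost wholly on 1 of several transcripts. Ift74-201 held 99.5% and 90.3% of the gene's TPM, Kifap3-201 held 98.8% and 98.4%, and Dync2h1-201 held 96.2% and 88.5%.

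For the other 5 genes, Ift140, Ift52, Ift81, Bbs7 and Bbs9, the transcript estimated as most abundant by TPM changed. Ift140-208, a processed transcript of 740 bases, was estimated at 52.6% of the gene in replicate 1 and 0% in replicate 2, whereas the coding Ift140-201 of 5489 bases went from 16.7% to 68.3%. For Ift52, the 874-base Ift52-203 led replicate 1 with 62.0% and the 2248-base Ift52-201 led replicate 2 with 75.7%. For Ift81, the retained-intron transcript Ift81-207 of 872 bases had 40.0% and 22.7%, and the 2950-base Ift81-201 had 37.7% and 60.3%. In Bbs9, the 638-base Bbs9-206 went from 40.4% to 0%, and the 3425-base Bbs9-211 from 14.3% to 24.3%. In these 4 genes the transcript leading replicate 1 had 638 to 874 bases, and the one leading replicate 2 had 2248 to 5489 bases. By counts, which are not divided by length, none of these 4 changed its leading transcript. The longer one already led replicate 1, with 39.2% of the counts for Ift140-201, 63.7% for Ift52-201, 74.9% for Ift81-201 and 39.9% for Bbs9-211. The estimated leading transcript by counts differed between the libraries in 4 of the 39 members, Bbs7, Ift57, Traf3ip1 and Mkks.

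For Bbs7 the estimated leader changed on both scales, between transcripts of similar length. Bbs7-201 (2599 bases) was estimated at 51.05% of the gene in replicate 1 and 0% in replicate 2, and Bbs7-203 (2687 bases) at 45.02% and 92.6%. In replicate 1 the posterior SD was 261 of 2607 counts for Bbs7-201 and 263 of 2383 counts for Bbs7-203. The counts lay within these SDs of each other, so which of them led replicate 1 is not settled. Mkks kept its leading transcript by TPM, but that transcript, Mkks-203, was a processed transcript of 810 bases with 81.4% and 51.2% of the gene's TPM, and 49.2% and 18.6% of its counts. The labelled size range began at 350 bases, and 4 members had more than 1% of their TPM in transcripts shorter than that. Ift46 had 17.9% and 30.9% there, Ift122 17.6% and 0%, Ift81 7.64% and 12.1%, and Ift80 1.34% and 1.84%. Bbs2 had unlike ratios by TPM and by counts. Its TPM was 16.95 and 33.25 (log2 ratio 0.97), while its counts gave a log2 ratio of 0.15 with TMM and 0.43 with plain totals. Bbs2-201 held 81.5% and 53.3% of the gene's TPM. How far scaling and transcript makeup each entered the gap between these ratios was not tested.

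**Figure D4:**
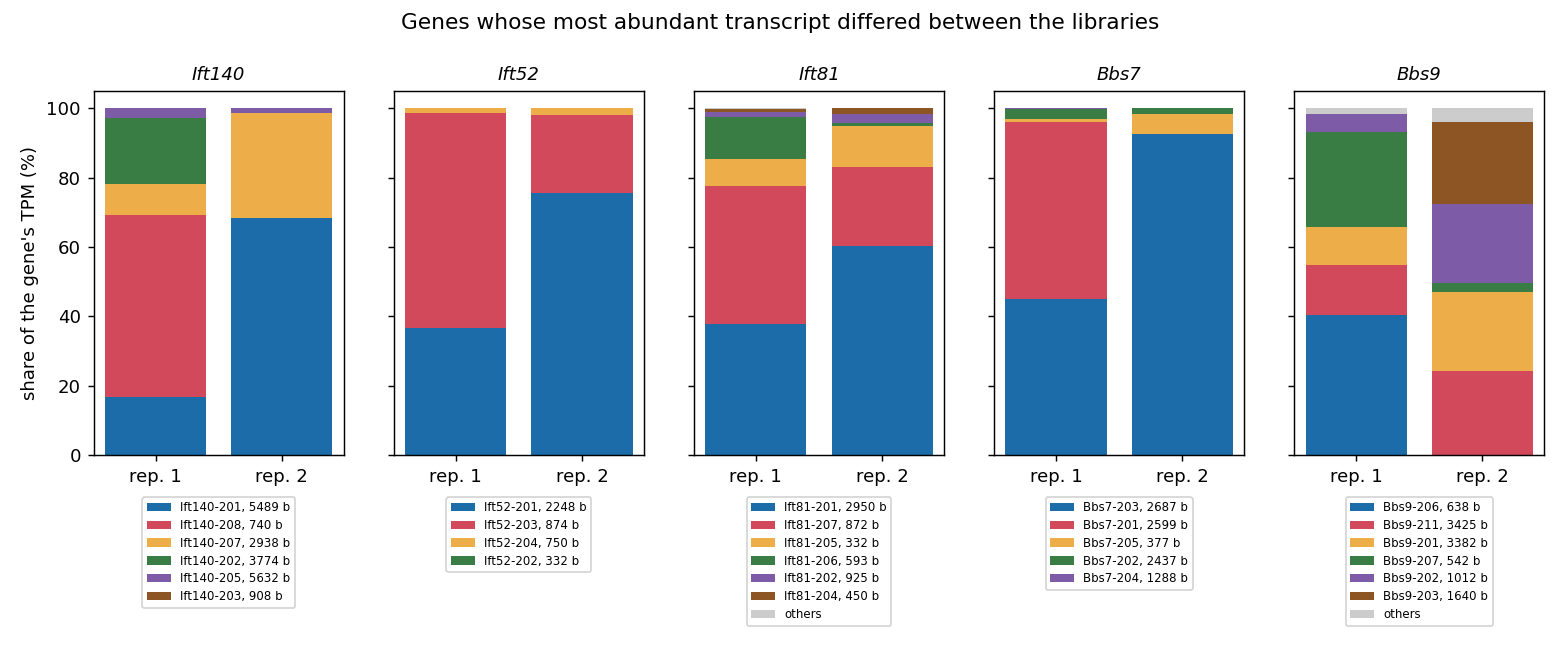
Share of the gene's TPM held by each transcript, in percent, in replicate 1 and replicate 2, for the 5 genes whose most abundant transcript differed. In Ift140 the 740-base transcript falls from 52.6% to 0%, and in Bbs7 the estimated leader changes between a pair of similar length. The estimates do not settle the order of that pair in replicate 1.

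Exons of 7 members overlap exons of other genes, all on the opposite strand, and whether the counting used strand was not stated. Bbs12 shares 32 bases with Cetn4, a centrin gene at 1532 and 420 TPM, against 8.25 and 5.28 TPM for Bbs12. Mkks shares 172 bases with Slx4ip, Bbip1 shares 97 with Shoc2, and Bbs4 shares 194 with Adpgk. The partners of Ift88 and Ift57 are antisense genes with at most 0.14 TPM. Cluap1 shares 368 bases with 1700016D08Rik (0 and 6.52 TPM, from 0 and 17 counts) and 51 with the antisense gene Gm15537 (0.15 and 0 TPM). Cluap1 also shares 510 bases on its own strand with Gm20695, which had 0.58 and 0.25 TPM. Reads that lie wholly within such overlaps cannot be told apart without strand. For Bbs12, Mkks, Bbip1 and Bbs4 the authors' posterior SD was 0 in both libraries, so the deposited values show no sharing of their reads with other genes. How strand entered the read assignment was not tested.

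A further 27 genes of the pathway that are not among the 39, such as other motor subunits, BBSome regulators, ciliary GTPases and transcription factors, were read for context. Of these, 25 were detected, 10 were called higher in replicate 2 (37.0%, against 32.3% of all genes) and 2 in replicate 1 (7.41%, against 23.5%), and 15 were not called. The 5 highest by mean were Dynll1, a light chain shared by several dyneins (1152 and 673 TPM), Lztfl1, a BBSome regulator (525 and 198 TPM), the membrane traffic GTPase Rab11a (393 and 229 TPM), the dynein-2 light chain Tctex1d2 (307 and 239 TPM) and the ciliary GTPase Arl3 (217 and 310 TPM). Lztfl1 (log2 ratio -1.76) and Rab11a (-1.32) were the pair called higher in replicate 1. The kinesin-2 motor subunits Kif3a (71.1 and 65.1 TPM) and Kif3b (61.2 and 87.6 TPM) were not called, and their partner Kifap3 stood above both in each library. The genes Rfx2, Kif17 and Foxj1, picked after their values were seen, had 10.2 and 194, 5.37 and 191, and 0.59 and 52.7 TPM, with GC contents of 58.5%, 60.1% and 61.4%. After the GC correction 2 of the 27 (7.41%, against 19.8% of all genes) were called, Rab3ip (log2 ratio 1.05) and Foxj1 (1.13), both higher in replicate 2.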

How the data were processed

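The labels describe 2 technical libraries of 1 testis. The binomial p-values set the difference between these libraries against counting error alone, and the spread between library preparations was not estimated. The deposited gene and transcript tables hold expected counts, TPM and FPKM made by the authors with mm10 and GENCODE M4, per the file headers and the notes deposited with them. No aligner or quantifier is named in the sources read for this work. The deposited transcript tables also give each transcript's percent of its gene, and the authors' posterior SDs are other deposited values. Names, positions, coding sequences and GC content came from GENCODE M21 (GRCm38), which named 42462 of 43346 gene entries; the 884 unnamed took 0.306% and 0.242% of counts. Promoter windows came from RefSeq. FPKM was used only in alternatives.

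Expected counts were rounded and scaled by TMM (edgeR 4.0.16 in R 4.3.3). Genes averaging at least 10 counts were tested with an exact binomial test (SciPy 1.17.1), with 0.5 added for log2 ratios. The procedure was tested on simulated data that varied by counting error alone, with no GC effect. That simulation does not cover differences from library preparation. DESeq2 1.42.0 size factors, plain totals, other limits and filters, TPM ratios, an edgeR exact test with an assumed variation of 0.1 and a correction in 100 GC bins were alternatives. GC content was that of the gene's most abundant transcript in its M21 sequence, whose length can differ from the quantified one. Ift22-201 had 911 bases as quantified and 637 in M21, Bbip1-201 had 2488 and 2043, and Ift57-204 had 1167 and 1582. The GC values and corrected ratios of such genes carry this limit. Depth limits the lowest genes most, and intervals for counting error do not cover library preparation. The members were listed by function, but they and the lists were chosen with earlier results of these data known. All 39 members are accounted for. The 2 highest and the lowest of each complex, every called gene, every gene with a changed leading transcript and the 3 Ttc30 genes were described in full.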

Additional observations from a re-analysis of the deposited data

How the results depend on the processing

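Of the 39 genes, 21 (53.8%) were called between the libraries, against 55.8% of all genes tested. The count stayed at 21 with DESeq2 size factors, without a count filter, with a minimum mean of 100 counts, and with the edgeR exact test. The share of all genes called was 55.7%, 43.3%, 55.4% and 55.2% in that order. Plain totals gave 13 calls (33.3%, against 51.6% of all genes), with 4 higher in replicate 1. The GC correction gave 2 (5.13% against 19.8%), both higher in replicate 2 and 0 in replicate 1. A ratio limit of 1.5 put 22 genes higher in replicate 1 (56.4% against 33.5%), and TPM ratios alone put 7 there (17.9% against 16.1%). The GC correction turned the sign of the log2 ratio in 13 genes: of called genes, Ift80 (0.15), Traf3ip1 (-0.30), Bbip1 (0.44) and Arl6 (0.21), and of the others, Bbs9 (1.01), Ttc21b (0.028), Wdr19 (0.19), Wdr35 (0.065), Ttc30a1 (0.19), Bbs1 (-0.27), Bbs2 (-0.10), Ttc8 (0.21) and Bbs12 (0.23). Plain totals turned Bbs9 (0.20) and TPM ratios turned Wdr19 (0.0095). The X-box count was 3 genes for the palindrome and 13 for its 6-base arm. The median level of a complex over that of detected protein-coding genes, taken in 1 library at a time, ranged from 5.003 to 5.28 for IFT-A, from 2.65 to 5.24 for the IFT-B core, from 3.49 to 4.20 for the peripheral IFT-B genes, from 1.75 to 3.06 for the BBSome, from 0.377 to 1.58 for the chaperonin-like genes, from 1.67 to 5.61 for Arl6, from 6.81 to 18.4 for Kifap3 and from 1.95 to 3.12 for dynein-2. The mean of both libraries gave 4.76, 3.96, 3.78, 1.96, 0.752, 2.85, 10.1 and 2.12 in that order. FPKM in place of TPM moved none of these by more than the spread between the libraries. The cause of these shifts was not tested. No paired analysis was possible because the series holds 1 group. Ift27 rested on 61 counts in replicate 1, the fewest of any member.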
